A study of Homo sapiens with 6 samples.

Results

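The ITM2 and BTG/TOB genes were followed in 2 cell lines of Ewing sarcoma, a bone tumour of the young, after small interfering RNA (siRNA) treatment. The 7 genes were ITM2A, ITM2B and ITM2C of the ITM2 family and BTG1, BTG3, TOB1 and TOB2 of the BTG/TOB family, out of 18417 genes with a probe set of their own. ITM2A and BTG3 were selected on their fall with the ITM2A siRNA against the control siRNA in these same data, so their differences in that comparison are given as a description with no test. The other 5 genes were taken as their relatives by family, and the question was whether they followed that fall. Each gene had 1 probe set that the platform annotation assigns to it alone, so no choice between probe sets was needed. The levels were log2 values made by the authors with RMA, which corrects background, normalizes between arrays and combines the probes of a probe set.

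The 6 arrays held A673 or SK-N-MC cells, both established Ewing sarcoma lines, that had received an siRNA against ITM2A (siITM2A), an siRNA against DKK2 (siDKK2), or a control siRNA that silences no gene. The product of DKK2 is secreted and acts on Wnt receptors, and the design text names the ITM2A siRNA as a second, separate knock-down. By the labels the ITM2A siRNA is number 7 for A673 and number 1 for SK-N-MC, so the lines may have received different oligonucleotides; the DKK2 siRNA is number 1 in both. There was 1 array per line and siRNA, all cells grew in the same serum-containing medium, and the time after transfection is not given in the sources used here. The 2 lines were therefore the replicates of each siRNA effect, and the number of arrays limits the precision.

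ITM2 proteins span the membrane once and carry a BRICHOS domain on the side away from the cytoplasm, a fold found in several secreted precursors. ITM2B is cut by furin, by the sheddase ADAM10 and by the intramembrane protease SPPL2B, it binds the amyloid precursor protein APP, and mutations at its end cause familial British and Danish dementia. BTG and TOB proteins share a domain at the amino end that binds the deadenylases CNOT7 and CNOT8 of the CCR4-NOT complex, which shortens the poly(A) tails of messenger RNAs, and their forced expression slows the cell cycle in many cell types.

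Promoter sequence is shown for ITM2A and BTG3, the genes selected on their fall with siITM2A, and for BTG1, the relative with higher values in both lines. Each run is the 250 bases before the RefSeq start of the gene in build GRCh38.p14, read in the direction of transcription. The windows lie at chrX:79367335-79367584, chr21:17612902-17613151 and chr12:92145847-92146096, all on the minus strand. Capitals mark matches, on either strand, to 4 motifs, and no 2 matches overlap. The first motif was TGACG, the core of the element through which cyclic AMP acts. The second was CCAAT, which the factor NF-Y binds. The third was TATAAA, a form of the TATA box, which lies just before the start of some genes. The fourth was GGGCGG, called the GC box and bound by Sp1.
ITM2A: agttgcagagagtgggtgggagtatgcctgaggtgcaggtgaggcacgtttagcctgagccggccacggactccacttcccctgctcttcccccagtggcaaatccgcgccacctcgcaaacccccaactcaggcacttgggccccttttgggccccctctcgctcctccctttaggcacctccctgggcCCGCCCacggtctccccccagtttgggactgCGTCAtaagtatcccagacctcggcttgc
BTG3: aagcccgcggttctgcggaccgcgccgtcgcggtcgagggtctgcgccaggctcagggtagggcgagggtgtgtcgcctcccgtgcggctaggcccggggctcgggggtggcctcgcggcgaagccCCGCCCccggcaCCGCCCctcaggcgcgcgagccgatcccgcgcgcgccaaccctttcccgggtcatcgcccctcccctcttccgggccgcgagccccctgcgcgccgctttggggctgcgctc
BTG1: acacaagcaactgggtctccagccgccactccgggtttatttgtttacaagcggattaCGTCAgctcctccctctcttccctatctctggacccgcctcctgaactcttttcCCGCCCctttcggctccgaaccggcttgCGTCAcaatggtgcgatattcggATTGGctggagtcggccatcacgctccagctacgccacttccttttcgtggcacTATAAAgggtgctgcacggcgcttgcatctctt

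The window of BTG3 held 2 GC boxes and no match to the other motifs, and 78.4% of its bases were G or C. The ITM2A window held 1 GC box and 1 TGACG match, with 64.0% G or C. BTG1 had 2 TGACG matches and 1 match each to the CCAAT motif, the TATA box and the GC box, with 56.4% G or C. The median share of G or C over all windows was 58.0%. The windows of the other members ran from 38.4% to 80.4%, both of TOB1. The GC box was not particular to ITM2A and BTG3. Each of the 6 members with a window had it in at least 1 window, though 1 TOB1 window held none. Of all 35116 windows of this length 42.6% hold it. TGACG was in 21.2% of the windows, CCAAT in 32.0% and the TATA box in 10.7%. Promoter windows were at hand for 6 of the 7 members, 9 windows in all. These matches describe the letters only.

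Array medians over the 33297 probe sets ran from 3.35 to 3.44. The correlation across probe sets was 0.986 to 0.991 within a line and 0.959 to 0.965 between lines. All 7 members lay above the array median on every array. Of 9 measured genes that mark Ewing sarcoma, 7 to 9 were above the median on each array, with GLI1, a Hedgehog pathway transcription factor, between 2.68 and 3.35 and the surface protein gene CD99 between 9.79 and 10.73. Of 7 measured markers of other cell types 0 were above the median on any array. The arrays differed in interferon-induced genes: the median of 13 of them in A673 was 5.96 with siITM2A, 4.27 with siDKK2 and 6.76 with the control siRNA, and in SK-N-MC 4.58, 3.71 and 4.69 in the same order. Their part in the results on the 7 members was not tested.

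With siITM2A both ITM2A and BTG3 were low in both lines, and 0 of the 5 relatives passed the test. ITM2A, known in T cell, cartilage and muscle development, stood at 5.03 with siITM2A in A673, against 8.52 with the control siRNA. In SK-N-MC it stood at 6.10 with siITM2A, against 9.48 with the control siRNA. Both siITM2A arrays lay far below both control arrays, and ITM2A was chosen on this fall. Over all genes 13.1% had both siITM2A arrays below both control arrays. Of the ITM2A control level 8.86% was left in A673 cells and 9.55% in SK-N-MC cells.

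BTG3, a family member that binds the cell cycle factor E2F1 and the checkpoint kinase CHEK1, stood at 5.31 with siITM2A in A673, against 7.09 with the control siRNA. In SK-N-MC it stood at 4.63 with siITM2A, against 6.49 with the control siRNA. Both siITM2A arrays lay below both control arrays, as for 13.1% of all genes, and BTG3 was chosen on this fall. Of the BTG3 control level 29.2% was left in A673 cells and 27.4% in SK-N-MC cells. The fitted differences, the mean over both lines from limma with the line as a term, were -3.44 ± 0.17 for ITM2A and -1.82 ± 0.13 for BTG3 (SE, n = 2 lines). Ordered by size, these held ranks 1 and 2 among the 18417 genes, and the lines lay close together in each. The plot of all genes by line shows both points apart from the cloud.

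**Figure D1:**
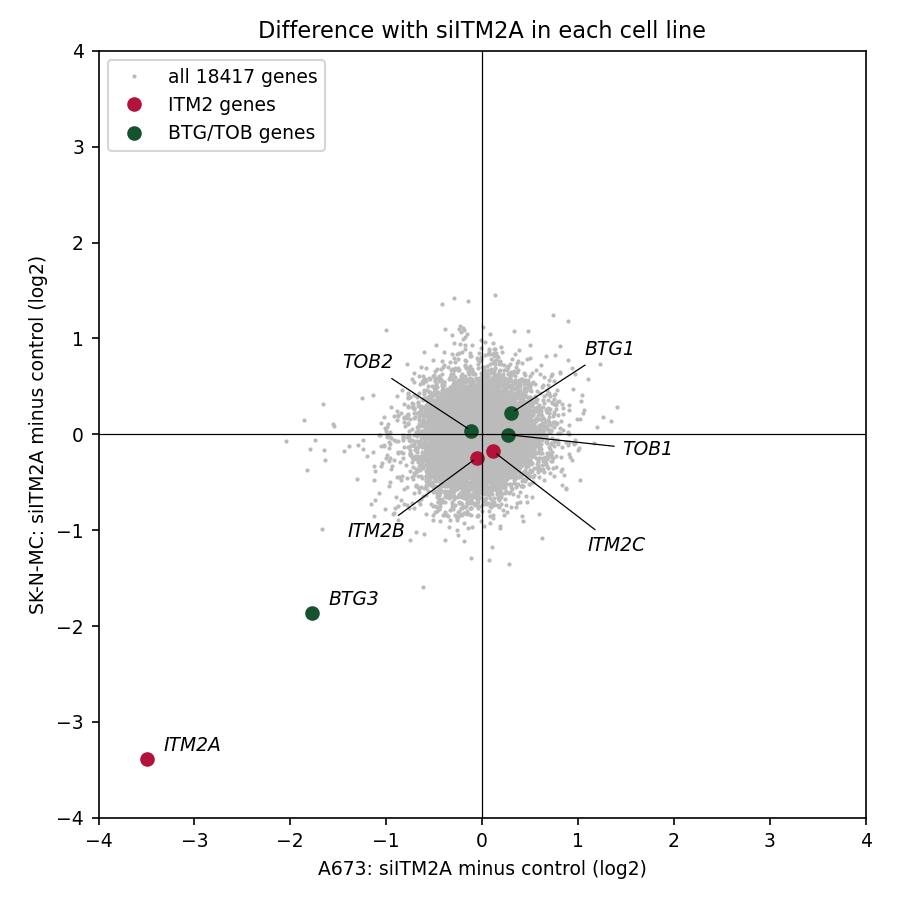
Difference of siITM2A minus control on the log2 scale in A673 (horizontal axis) and SK-N-MC (vertical axis), with 1 grey point per gene (18417 genes), ITM2 genes in red and BTG/TOB genes in green. ITM2A lies at -3.50 and -3.39 and BTG3 at -1.78 and -1.87, while the 5 relatives lie within the central cloud, between -0.25 and 0.30 in either line.

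ITM2B, whose product gives rise to the dementia peptides, stood at 7.58 in A673 cells and 7.53 in SK-N-MC cells with siITM2A, against 7.64 and 7.77 with the control siRNA. Both siITM2A arrays lay slightly below both control arrays, and 13.1% of all genes had both below. The fitted difference was -0.15 ± 0.13 and its 95% interval ran from -0.45 to 0.15 (limma, adjusted p = 0.887 over all genes), so the largest fall inside the interval leaves 73.0% of the control level. It was -0.25 without the siITM2A array of A673 and -0.05 without that of SK-N-MC.

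ITM2C, the third family member, known to bind APP, stood at 8.46 in A673 cells and 8.27 in SK-N-MC cells with siITM2A, against 8.34 and 8.45 with the control siRNA. The lines went opposite ways and the groups overlapped. In the fit this gave -0.03 ± 0.14, with an interval of -0.35 to 0.29 (limma, adjusted p = 0.991), and its sign turned to 0.02 when the arrays were quantile normalized again.

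BTG1, a gene often mutated or lost in B cell malignancies, stood at 6.69 in A673 cells and 6.45 in SK-N-MC cells with siITM2A, against 6.38 and 6.22 with the control siRNA. It was the 1 relative with higher values in both lines. Both siITM2A arrays lay above both control arrays, as for 8.95% of all genes. Averaged in the fit, BTG1 differed by 0.26 ± 0.17 with an interval of -0.13 to 0.66 (limma, adjusted p = 0.841). That value was 0.09 without the siITM2A array of A673 and 0.44 without that of SK-N-MC.

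TOB1, a binder of Smad proteins and of the poly(A)-binding protein PABPC1, stood at 5.63 in A673 cells and 6.52 in SK-N-MC cells with siITM2A, against 5.36 and 6.52 with the control siRNA. The A673 array was higher and the SK-N-MC arrays were level. In the fit TOB1 differed by 0.13 ± 0.13, with an interval of -0.18 to 0.44 (limma, adjusted p = 0.912). Leaving out the siITM2A array of A673 gave 0.0092, and leaving out that of SK-N-MC gave 0.26.

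TOB2, the close relative of TOB1, stood at 6.35 in A673 cells and 6.42 in SK-N-MC cells with siITM2A, against 6.46 and 6.38 with the control siRNA. It had the narrowest spread of the 7 members over the siRNAs, with a range of 0.14 once each line's mean was taken away, against 0.26 to 0.57 for the other 4 relatives, 1.89 for BTG3 and 4.18 for ITM2A. The fitted difference was -0.04 ± 0.13, with an interval of -0.33 to 0.25 (limma, adjusted p = 0.983), and its sign turned to 0.03 when the arrays were quantile normalized again.

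Of the 5 relatives 0 passed the threshold of an adjusted p under 0.05 with siITM2A (limma, 0 at an unadjusted p under 0.05). Over all genes 0.0109% passed and 6.91% had an unadjusted p under 0.05. That 0.0109% is ITM2A and BTG3 alone, which this comparison chose, so it is no test of them. Outside that choice no gene passed. Of these 5 genes 1 was lower in both lines (ITM2B), 1 was higher in both (BTG1) and 3 went opposite ways, against 30.7% lower and 21.2% higher in both lines over all genes. Both siITM2A arrays lay below both control arrays for ITM2B and above them for BTG1, against 13.1% and 8.95% of all genes. The median fitted difference of the 5 relatives was -0.03, as was that of all genes. In order of size the relatives ranked from 2582 (BTG1) to 15559 (ITM2C) among 18417 genes. A fall as large as that of BTG3 lay outside the interval of every one of the 5.

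**Figure D2:**
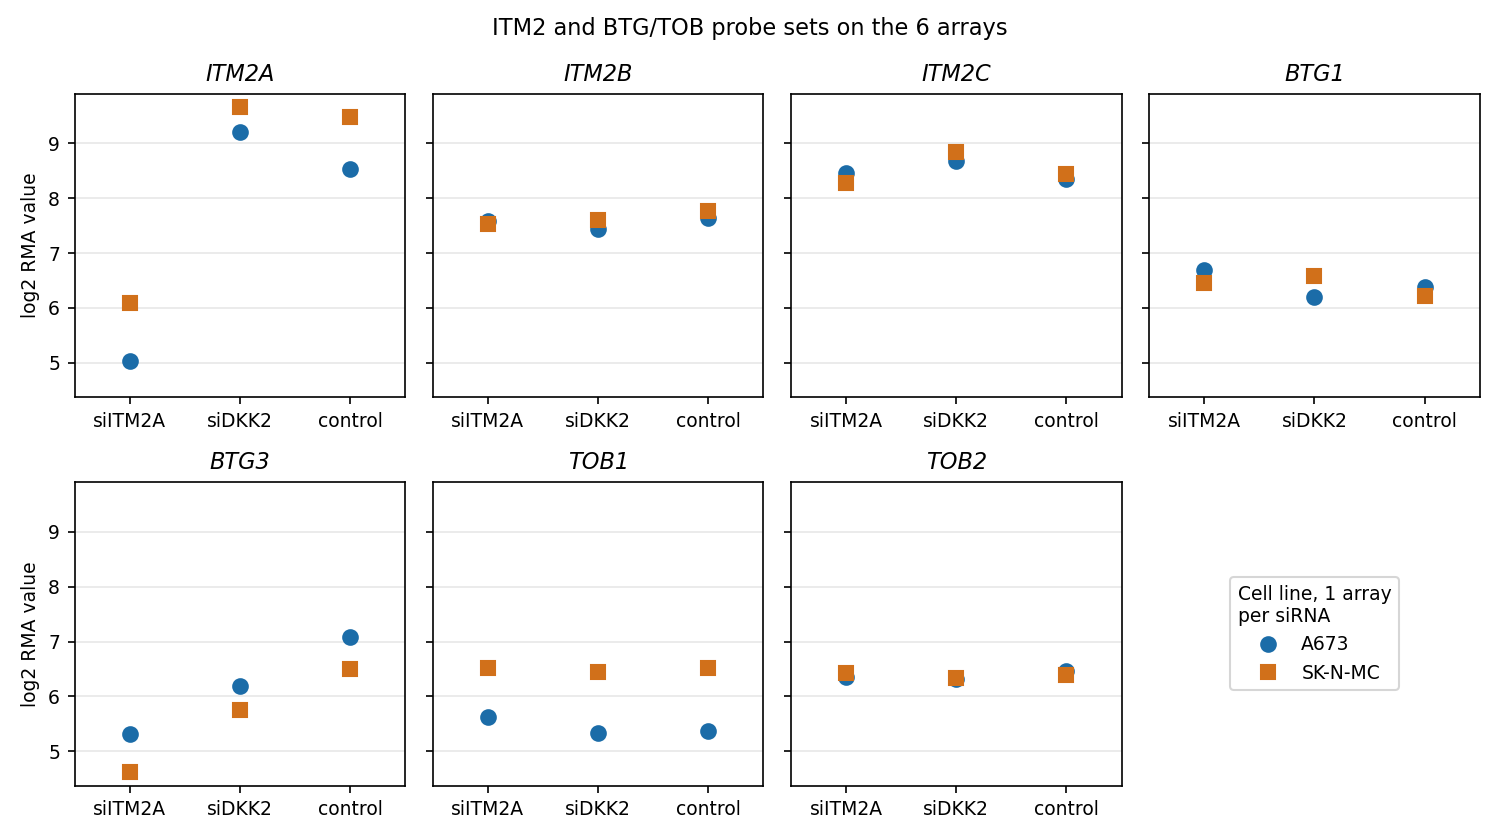
Log2 RMA value (vertical axis) of each of the 7 members with siITM2A, siDKK2 and the control siRNA, 1 panel per gene, with circles for A673 and squares for SK-N-MC and 1 array per point. ITM2A is low with siITM2A alone, BTG3 stands at 4.63 to 5.31 with siITM2A, 5.75 to 6.19 with siDKK2 and 6.49 to 7.09 with the control siRNA, and TOB1 separates the lines.

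The comparison of siDKK2 with the control siRNA did not choose the members, though it shares the control arrays with the one that did. With siDKK2 BTG3 had the largest difference in size of the 7 members. It stood at 6.19 with siDKK2 in A673, against 7.09 with the control siRNA, and at 5.75 with siDKK2 in SK-N-MC, against 6.49 with the control siRNA. Both siDKK2 arrays lay below both control arrays, as for 14.3% of all genes, and 53.7% of the control level was left in A673 cells and 59.7% in SK-N-MC cells. The mean of the lines in the fit was -0.82 ± 0.13 with a 95% interval of -1.12 to -0.52 (n = 2 lines). Over all genes the threshold was not met (limma, adjusted p = 0.213). BTG3 was chosen partly for high values on these control arrays, so the interval and p are a description. The difference stood at rank 85 from the lowest among the 18417 fitted differences. Both differences of BTG3 use the same control arrays, so they are not separate results. On the same arrays the median of the 13 differences of the interferon-induced genes was -3.31 (A673) and -1.18 (SK-N-MC), while BTG3 differed by -0.90 and -0.74.

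ITM2A itself had higher values with siDKK2, at 9.21 against 8.52 with the control siRNA in A673 and at 9.66 against 9.48 in SK-N-MC. The arrays of the siRNAs overlapped between lines, and A673 showed most of the difference. Its fitted difference of 0.43 ± 0.17 had an interval of 0.04 to 0.82 (limma, adjusted p = 0.537), and it was 0.145 without the siDKK2 array of A673 and 0.711 without that of SK-N-MC. ITM2C was higher with siDKK2 more evenly, at 8.68 against 8.34 with the control siRNA in A673 and at 8.84 against 8.45 in SK-N-MC. Both siDKK2 arrays of ITM2C lay above both control arrays, as for 9.93% of all genes, and the fitted difference was 0.36 ± 0.14 with an interval of 0.04 to 0.69 (limma, adjusted p = 0.535). ITM2B differed the other way, by -0.21 in A673 cells and -0.17 in SK-N-MC cells.

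TOB1 differed by -0.03 in A673 cells and -0.08 in SK-N-MC cells with siDKK2, and TOB2 by -0.14 and -0.05. BTG1 stood at 6.20 with siDKK2 against 6.38 with the control siRNA in A673, and at 6.59 against 6.22 in SK-N-MC, so its lines went opposite ways. Of the 7 members 0 passed (limma), where 0.0109% of all genes did. At an unadjusted p under 0.05 (limma) there were 3, ITM2A, ITM2C and BTG3, where 8.68% of all genes were. ITM2A and BTG3 were chosen on the shared control arrays, so their p-values here are a description. The members lower in both lines numbered 4 (ITM2B, BTG3, TOB1 and TOB2) and those higher in both 2 (ITM2A and ITM2C), against 31.6% and 23.2% of all genes. Their median fitted difference was -0.05, beside -0.02 over all genes.

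**Figure D3:**
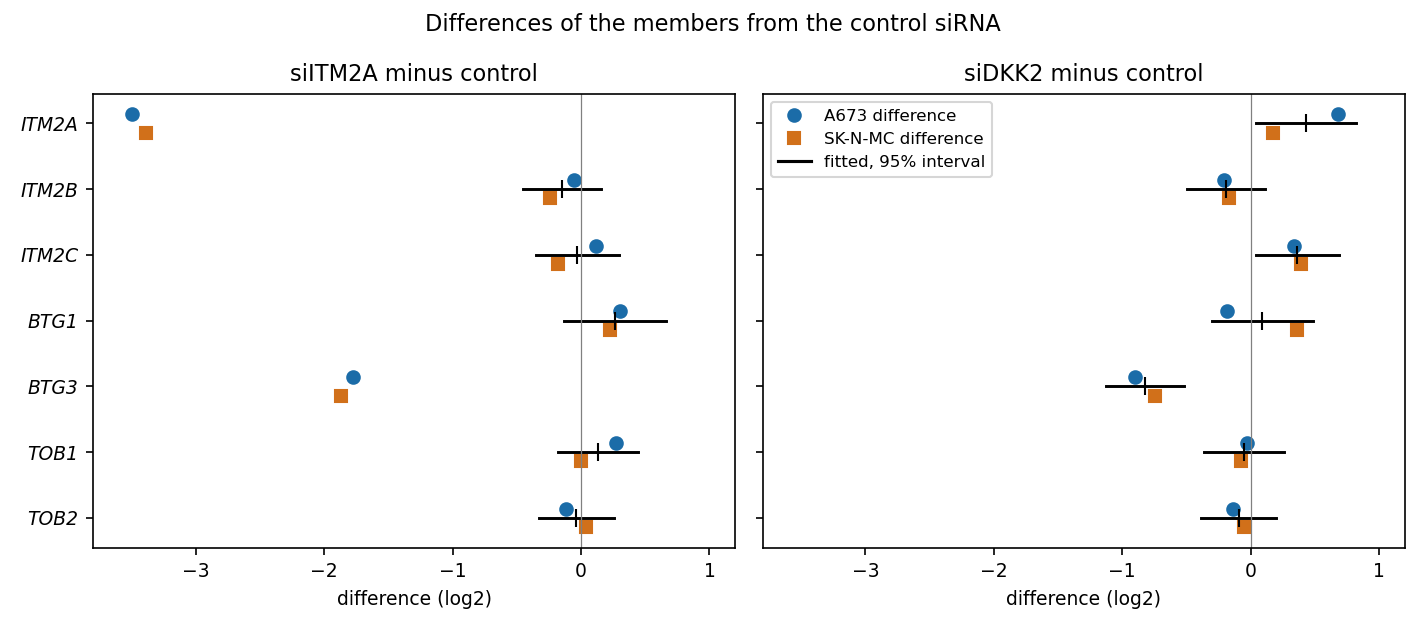
Differences from the control siRNA on the log2 scale (horizontal axes) for siITM2A (left panel) and siDKK2 (right panel), with 1 row per member, circles for A673, squares for SK-N-MC, and black lines for the fitted difference with its 95% interval (none is drawn for ITM2A and BTG3 with siITM2A, which chose them). BTG3 lies at -1.78 and -1.87 with siITM2A and at -0.90 and -0.74 with siDKK2, and the intervals of ITM2A and ITM2C with siDKK2 lie just above 0.

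Set directly against siDKK2, BTG3 differed with siITM2A by -0.88 in A673 cells and -1.12 in SK-N-MC cells, and ITM2A by -4.18 and -3.56. These values reuse the siITM2A arrays behind the choice of both genes and carry no test. ITM2C differed by -0.22 in A673 cells and -0.57 in SK-N-MC cells, with a fitted difference of -0.39 ± 0.14 and an interval of -0.72 to -0.07 (limma, adjusted p = 0.527), or -0.23 without the siITM2A array of SK-N-MC. The other 4 relatives had fitted differences of 0.04 (ITM2B) to 0.19 (TOB1). Of the 5 relatives 0 passed (limma; ITM2C alone had an unadjusted p under 0.05), beside 0.0163% of all genes that passed and 8.32% with an unadjusted p under 0.05.

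Between the lines, 3 of the 7 members differed past the threshold, where 28.5% of all genes did. TOB1 had the largest difference of the 7 in size. It stood at 5.63 with siITM2A, 5.34 with siDKK2 and 5.36 with the control siRNA in A673, and at 6.52, 6.44 and 6.52 in SK-N-MC in the same order. All A673 arrays lay below all SK-N-MC arrays, as for 20.8% of all genes, and the fitted difference of A673 minus SK-N-MC was -1.05 ± 0.11 (SE, n = 3 siRNAs, with an interval of -1.30 to -0.80; limma, adjusted p = 0.000173), a 2.07-fold lower level.

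ITM2A was lower in A673 under each siRNA, with differences of -1.07 with siITM2A, -0.45 with siDKK2 and -0.96 with the control siRNA. Its fitted difference was -0.83 ± 0.14 (limma, adjusted p = 0.00224). BTG3 was higher in A673 under each siRNA, by 0.68, 0.44 and 0.59 in the same order, with a fitted difference of 0.57 ± 0.11 (limma, adjusted p = 0.0041), a 1.49-fold higher level. Of the 7 members 2 were lower in A673 under every siRNA (ITM2A and TOB1) and 1 was higher (BTG3), against 29.4% and 24.6% of all genes. Without siRNA as a term, where the siRNA differences count as spread, ITM2A (adjusted p = 0.698) and BTG3 (adjusted p = 0.494) lost their calls.

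ITM2B, ITM2C, BTG1 and TOB2 did not differ past the threshold, and the sign of each changed between siRNAs. TOB2 had the fitted difference nearest to 0, at -0.0003 with an interval of -0.24 to 0.24 (limma, adjusted p = 0.999). BTG1 varied most between siRNAs among these 4, at 0.24 with siITM2A, -0.39 with siDKK2 and 0.16 with the control siRNA. The intervals of ITM2B (-0.33 to 0.16) and ITM2C (-0.29 to 0.24) leave out a difference as large as that of TOB1.

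**Figure D4:**
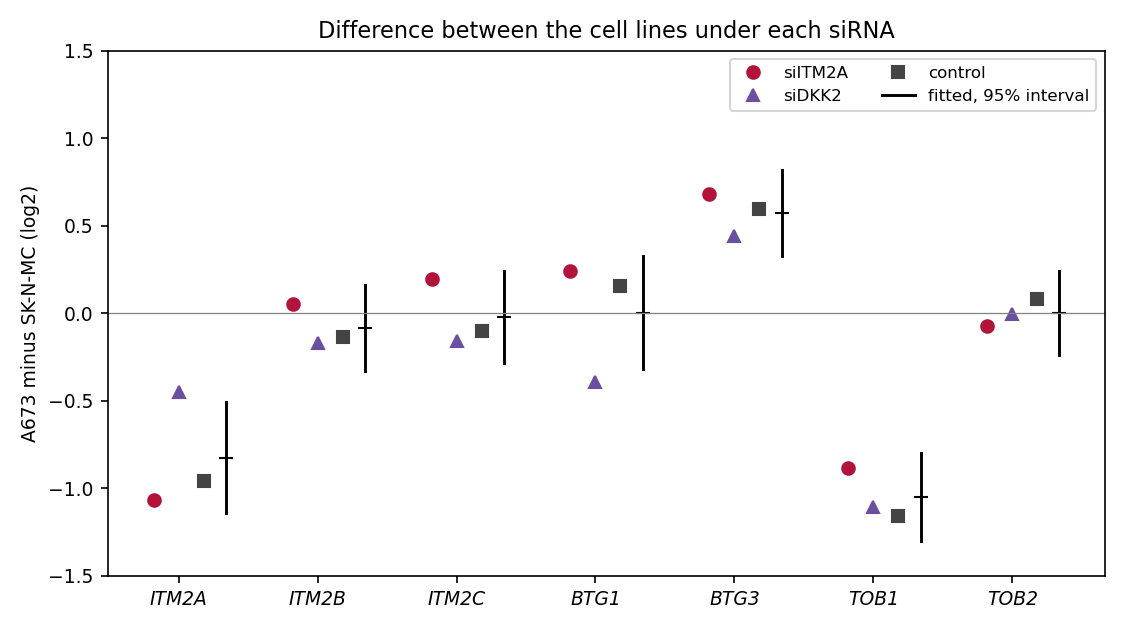
Difference of A673 minus SK-N-MC on the log2 scale (vertical axis) for each member, with 1 coloured point per siRNA and a black line for the fitted difference with its 95% interval. TOB1 lies at -0.88 to -1.16 and ITM2A at -0.45 to -1.07 under all 3 siRNAs, BTG3 lies at 0.44 to 0.68, and the other 4 members straddle 0.

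The genes that act with these families did not pass the threshold with either siRNA. Few genes of any kind did, 0.0109% of all genes with each siRNA against control, so 0 passing says little about a list. Over all genes 6.91% had an unadjusted p under 0.05 with siITM2A and 8.68% with siDKK2. Of 12 subunits of the CCR4-NOT complex, to which BTG and TOB proteins bind, 0 passed with siITM2A (limma, 2 at an unadjusted p under 0.05; median -0.09 beside -0.03 over all genes). The subunit gene CNOT3 differed by -0.36 ± 0.14 and the deadenylase gene CNOT6 by -0.33 ± 0.13. CNOT7 and CNOT8, the deadenylases that BTG/TOB proteins contact, had fitted differences of 0.01 and 0.02. Each went opposite ways in the lines. CNOT7 differed by -0.16 in A673 cells and 0.17 in SK-N-MC cells, and CNOT8 by 0.27 and -0.23. With siDKK2 again 0 passed (limma, 1 at an unadjusted p under 0.05; median -0.12), with CNOT11 at -0.35 ± 0.13 and TNKS1BP1 at -0.30 ± 0.14.

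Of 10 genes for poly(A) tail factors and other BTG/TOB partners 0 passed with siITM2A (limma, 1 at an unadjusted p under 0.05; median -0.04), led by the deadenylase gene PAN2 at -0.37 ± 0.14 and SMAD5 at 0.22 ± 0.13. With siDKK2 0 passed as well (limma, 3 at an unadjusted p under 0.05, median -0.13). Over all genes the unadjusted share was 6.91% with siITM2A and 8.68% with siDKK2. SMAD1, a transducer of bone morphogenetic protein signals whose family TOB1 binds in the mouse, stood at 4.40 with siDKK2 in A673, against 5.28 with the control siRNA, and at 4.43 in SK-N-MC, against 5.37 with the control siRNA. With siITM2A it stood at 5.38 in A673 cells and 5.40 in SK-N-MC cells. Both siDKK2 arrays were the lowest of the 6. They lay below both control arrays, as for 14.3% of all genes, and the fitted difference of -0.91 ± 0.13 did not pass (limma, adjusted p = 0.209). PABPC4, a poly(A)-binding protein gene, differed by 0.45 ± 0.14 with siDKK2.

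Of 9 genes for the proteases that cut ITM2 or related membrane proteins and for APP, 0 passed with siITM2A (limma, 1 at an unadjusted p under 0.05; median -0.07). The proprotein convertase gene PCSK6 differed by -0.30 ± 0.13 and the beta-secretase gene BACE1 by -0.23 ± 0.16. With siDKK2 0 passed (limma, 1 at an unadjusted p under 0.05, median -0.01). The unadjusted share over all genes was 6.91% with siITM2A and 8.68% with siDKK2. ADAM10, the sheddase that releases the ITM2B ectodomain, stood at 7.63 with siDKK2 in A673, against 8.21 with the control siRNA, and at 6.97 in SK-N-MC, against 7.48, a fitted difference of -0.54 ± 0.14 (limma, adjusted p = 0.353). FURIN differed by 0.19 ± 0.14.

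The 5 genes of other BRICHOS proteins stayed between 1.70 and 3.61 on all arrays, and 0 passed in any of the 4 comparisons (limma). At an unadjusted p under 0.05 there were 0 with siITM2A and 1 with siDKK2, where 6.91% and 8.68% of all genes were. Of these 5, 1 lay above the array median with siITM2A in A673 and 0 on every other array. Background was not measured, so it is not known whether they were expressed. SFTPC (0.19 ± 0.17) and GKN1 (-0.26 ± 0.14) had the largest fitted differences of the 5 with siITM2A, and CNMD (0.33 ± 0.14) and GKN1 (-0.21 ± 0.14) with siDKK2. BTG4, a BTG gene known from the oocyte, stayed between 1.82 and 2.04, with fitted differences of 0.09 ± 0.13 with each siRNA, and BTG2 was not analysed here. Between siITM2A and siDKK2 0 genes of these lists passed, where 0.0163% of all genes did (limma). The unadjusted p (limma) was under 0.05 for 1 CCR4-NOT gene, 2 of the poly(A) list, 1 of the ITM2 processing list and 0 of the rest. This held for 8.32% of all genes. SMAD1 was higher with siITM2A than with siDKK2 by 0.97 ± 0.13 (limma, adjusted p = 0.106).

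Between the lines these lists differed more. Of the 12 CCR4-NOT genes 6 passed, with CNOT1 and CNOT7 higher in A673 and CNOT6, CNOT6L, CNOT8 and CNOT10 lower. The paired deadenylase genes went opposite ways: CNOT7 was higher in A673 by 0.62 ± 0.11 (limma, adjusted p = 0.00329) and CNOT8 lower, at -1.21 ± 0.12 (limma, adjusted p = 0.000152). Of the poly(A) list 2 of 10 passed, PAN2 higher (0.41 ± 0.11) and PAN3 lower (-0.40 ± 0.12). Of the ITM2 processing list 6 of 9 passed: APP (1.45 ± 0.11), SPPL2A (0.99 ± 0.14), FURIN (0.81 ± 0.11), ADAM10 (0.79 ± 0.11) and BACE1 (0.79 ± 0.13) were higher in A673 and SPPL2B (-0.53 ± 0.12) lower, while ITM2B did not pass. These shares stand beside 28.5% of all genes.

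The genes most like ITM2A and BTG3 over the 6 arrays were found by Pearson's correlation after each line's mean was taken away, among genes at or above the median level whose centred values ranged over at least 0.5. With 6 values and 2 line means removed, high correlations are easily met, and they are given as a description. For ITM2A the 5 closest were KLHDC3 (r = 0.999), AFF1 (r = 0.997), DDX39A (r = 0.993), SUV39H1 (r = 0.991) and FN3KRP (r = 0.991). KLHDC3, a substrate receptor of a cullin ubiquitin ligase, stood at 6.88 with siITM2A, 7.84 with siDKK2 and 7.64 with the control siRNA in A673, and at 7.71, 8.50 and 8.48 in SK-N-MC in the same order. Its values were lower with siITM2A than with either other siRNA in both lines, over a centred range of 0.96 against 4.18 for ITM2A. KLHDC3 was picked by likeness, so this order follows largely from the pick.

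For BTG3 the 5 closest were TCHP (r = 0.993), ANAPC2 (r = 0.992), GNB5 (r = 0.991), GOLGA7 (r = 0.988) and YPEL5 (r = 0.985), each over a centred range of 0.50 to 0.62 against 1.89 for BTG3. ANAPC2, a core subunit of the anaphase-promoting complex, stood at 4.41 with siITM2A, 4.64 with siDKK2 and 4.88 with the control siRNA in A673, and at 4.84, 5.24 and 5.45 in SK-N-MC. Like BTG3 it was lowest with siITM2A and highest with the control siRNA in both lines, an order that follows largely from its choice by likeness. ITM2A and BTG3 correlated with each other at r = 0.834, which put BTG3 at place 188 in likeness to ITM2A among the 2636 genes searched. Both were chosen for their fall with siITM2A on these arrays, so a high value between them follows in part from that choice. The relatives were not chosen on that fall. Their likeness to ITM2A ran from r = 0.564 for ITM2C to r = -0.804 for TOB1. For BTG3 it ran from r = 0.639 for ITM2B to r = -0.559 for BTG1.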

How the data were processed

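Total RNA was hybridised, after amplification and biotin labelling, to Affymetrix arrays that cover whole transcripts, per the labels' protocols. Expression Console and RMA are named in the submitters' processing notes; versions and settings were not given in the sources used here, nor was a genome build. The deposited values were read as log2 values of each probe set, since they run from 1.02 to 13.4. RMA draws in the differences of dim probe sets, which makes folds of weakly expressed genes too small, and background was not measured.

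Of 33297 probe sets, 19460 had 1 gene symbol, 1754 had several and 12083 were not listed; for 769 genes the probe set with the highest mean was kept. Differences were fitted in R 4.3.3 with limma 3.58.1 (lmFit, eBayes) in 1 model of the 6 arrays whose terms were the siRNA and the line, leaving 2 residual degrees of freedom (8.28 after moderation), and adjusted by Benjamini-Hochberg over all 18417 genes. By the labels, arrays are paired by line. Nothing in the labels names repeat cultures, so p-values measure how evenly the lines, or between lines the siRNAs, responded, which may be technical spread. With 1 array per line and siRNA no difference in response between lines was tested. Alternatives were other probe set rules, scalings, moderation and terms, and leaving out each array. Named genes were the members, list genes past the threshold and the 5 genes most like ITM2A and BTG3. Otherwise the 2 with the largest difference were named per list and siRNA comparison with the control. For the lists of Ewing sarcoma markers, other cell types and interferon-induced genes those 2 were not named. Of the interferon-induced genes past the threshold between the lines only OAS3 was named. CNOT7, CNOT8, SMAD1 between the siRNAs, KLHDC3 and ANAPC2 were described further after their values were seen. The members and lists were chosen with earlier results of these data known.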

Additional observations from a re-analysis of the deposited data

Results flagged for a closer look

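Some members moved in opposite directions in the lines or under the siRNAs, with 1 array behind each value, and no such difference was tested. With siITM2A against control ITM2C differed by 0.117 in A673 cells and -0.178 in SK-N-MC cells, TOB1 by 0.269 and -0.00378, and TOB2 by -0.115 and 0.0387. With siDKK2 against control BTG1 differed by -0.183 in A673 cells and 0.364 in SK-N-MC cells. With siITM2A against siDKK2 ITM2B differed by 0.152 in A673 cells and -0.0734 in SK-N-MC cells, and BTG1 by 0.488 and -0.142. BTG1 thus had its lowest A673 value and its highest SK-N-MC value with siDKK2. Between the lines, as A673 minus SK-N-MC with siITM2A, siDKK2 and the control siRNA in that order, ITM2B differed by 0.0526, -0.172 and -0.137, ITM2C by 0.193, -0.156 and -0.103, BTG1 by 0.239, -0.391 and 0.156, and TOB2 by -0.0741, -0.00646 and 0.0795. These were 10 of the 28 pairs of a member and a comparison. ITM2A and BTG3 kept 1 direction in each comparison.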

How the results depend on the processing

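Of 357 values of the members under the alternatives, 322 kept their direction and their side of the threshold, 2 lost a call, 27 changed sign and 6, of ITM2A and BTG3 where no test was made, moved by more than the spread between lines. The 2 lost calls were ITM2A and BTG3 between the lines when siRNA was left out as the replicate block. ITM2A and BTG3 kept their sign in every alternative run, BTG3 with siITM2A at -1.91 to -1.74 and with siDKK2 at -0.92 to -0.72. With siITM2A against control the count of genes past the threshold (limma) was 2, ITM2A and BTG3. This comparison chose both, so their passing is no test. The count was 0 with no replicate block (230 at an unadjusted p under 0.05). For siDKK2 against control it was 2, with 7 under an intensity trend, 0 with no replicate block (322 unadjusted) and 0 from only the arrays compared (1433 unadjusted). For siITM2A against siDKK2 it was 3, with 6 among genes at or above the median level, 16 under an intensity trend, 18 from only the arrays compared and 0 with no replicate block (272 unadjusted). Leaving out 1 array at a time gave 0 to 4, 0 to 60 and 1 to 50 genes in the same order. The first count was 0 if either siITM2A array was dropped and 4 if the control array of SK-N-MC was. The second was 0 if either siITM2A array or the siDKK2 array of A673 was dropped, 60 if the siDKK2 array of SK-N-MC was and 45 if its control array was. The third was 50 if the siDKK2 array of SK-N-MC was dropped, 18 for either control array and 1 for either siITM2A array. Between the lines 3729 to 5435 genes passed, against 5256. After renewed quantile normalization ITM2C (0.0229) and TOB2 (0.0273) changed sign with siITM2A against control, and BTG1 between the lines (-0.0134, and -0.0376 after centring on the array median). Without 1 array, values that changed sign ran from -0.192 to 0.131 (ITM2C) and -0.0980 to 0.0218 (TOB2) with siITM2A against control, from -0.203 to 0.385 (BTG1) and -0.133 to 0.0291 (TOB1) with siDKK2 against control, from -0.0645 to 0.143 (ITM2B) and -0.121 to 0.467 (BTG1) with siITM2A against siDKK2, and from -0.129 to 0.0450 (ITM2C), -0.117 to 0.198 (BTG1) and -0.0403 to 0.0365 (TOB2) between the lines. Others kept their sign but moved by over 1.5 times. These were ITM2B (-0.254 to -0.0472), BTG1 (0.0854 to 0.442) and TOB1 (0.0092 to 0.256) with siITM2A against control, ITM2A (0.145 to 0.711), ITM2B (-0.255 to -0.125) and TOB2 (-0.155 to -0.0348) with siDKK2 against control, ITM2C (-0.556 to -0.233), TOB1 (0.0614 to 0.309) and TOB2 (0.00132 to 0.112) with siITM2A against siDKK2, and ITM2B between the lines (-0.155 to -0.0421). The cause of these changes was not tested.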

Other observations

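The 10 measured proliferation genes did not pass the threshold with siITM2A (limma, 0 at an unadjusted p under 0.05; median -0.02, beside -0.03 over all genes). Of these 10, 8 went opposite ways in the lines, as 8863 of all 18417 genes did. Their median difference was 0.13 in A673 cells and -0.23 in SK-N-MC cells, and this contrast of the lines was not tested. Over all genes 6.91% had an unadjusted p under 0.05 with siITM2A and 8.68% with siDKK2. PCNA, the sliding clamp of DNA replication, differed with siITM2A by -0.14 ± 0.13 and the mitotic kinase gene CDK1 by 0.12 ± 0.13. With siDKK2 0 of the 10 passed (limma, 1 at an unadjusted p under 0.05; median -0.05), with CCNE2, a cyclin of the start of replication, at 0.02 in A673 cells and -0.89 in SK-N-MC cells and the replicative helicase gene MCM2 at 0.61 and 0.23. Between the lines 4 passed: CCND1 was higher in A673 by 1.23 ± 0.14, and TOP2A (-1.26 ± 0.14), E2F1 (-0.58 ± 0.11) and CCNE2 (-1.96 ± 0.20) were lower (limma, adjusted p of 0.00374 or less), where 28.5% of all genes passed.

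Of the 9 measured Ewing sarcoma markers 6 differed between the lines: CD99 and LIPI were higher in A673, and STEAP1, CCK, NKX2-2 and PAX7 lower, where 28.5% of all genes differed. Of the 13 interferon-induced genes 11 were higher in A673 past the threshold, with OAS3 at 2.42 ± 0.33, where 2549 of all 18417 genes were. The median of their 13 differences of A673 minus SK-N-MC was 2.17 with siITM2A, 0.05 with siDKK2 and 2.88 with the control siRNA. Of the 7 markers of other cell types 0 passed (limma, 0 at an unadjusted p under 0.05).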
